A study of Drosophila melanogaster with 3 samples.

Results

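Grainy head (Grh) peaks were examined in 2 stretches of chromosome arm 2L that are named for secreted signalling proteins. One is the locus of decapentaplegic (dpp), and the other is named for the cluster of Wnt genes with wingless (wg), Wnt4, Wnt6 and Wnt10. The members were taken by position in the dm3 genome build, as every peak whose start lay in either of 2 windows. The dpp window (70 kb) ran from 2420000 to 2490000, and the wg cluster window (130 kb) from 7230000 to 7360000. These limits were chosen with earlier results of these data known. The rule found 33 of 13796 peaks, made up of 28 of the 12158 peaks of the rabbit antibody and 5 of the 1638 peaks of the mouse antibody. The genes give the windows their names, but no peak was tied to a gene, since no dm3 annotation was used here. Whether each gene lies inside its window was not checked. In RefSeq's Release 6 table, which matched all 5 genes and was used for order alone, Wnt4 is followed along the arm by wg, Wnt6 and Wnt10. Wnt10, the last of them, may lie partly or wholly past the right end of the window. A small gene (CG31909) stands between Wnt4 and wg in that order, and a non-coding RNA gene (lncRNA:CR45304) between wg and Wnt6.

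Of the proteins named here, Dpp and Wg are known for patterning epithelia. Dpp is a ligand of the bone morphogenetic protein family, which acts through the receptors Thickveins, Saxophone and Punt and the Smad protein Mad, and is known in the fly embryo for setting dorsal fates, for dorsal closure of the epidermis and for guiding tracheal branches. Wg is a Wnt ligand that acts through Frizzled receptors and the beta-catenin Armadillo, and is known for its part in laying out the segments and the naked and toothed bands of the larval cuticle. Wnt4, Wnt6 and Wnt10 are further ligands of that family. Grh is a transcription factor of epithelia, best known for the making and the wound repair of the cuticle.

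Chromatin came from w1118 embryos aged 13 to 16 h, and each immunoprecipitation used an anti-Grh antibody raised in mouse, one raised in rabbit, or rabbit IgG. The whole embryo was used, so the cell type in which a peak arose is not known. Each antibody had 1 library, the IgG library was not analysed here and read depths are unknown. No spread between replicates therefore exists, no difference below was tested, and the intervals given cover counting error only.

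The dpp window held 13 rabbit and 3 mouse peaks. None lay to the right of 2468224, and the rest of the window was empty in both lists. The highest rabbit peak, at 2433844, had a score of 37.8, of order 299 in the rabbit list of 12158. A mouse peak lay 5 bp from it, at 2433849, with a score of 10.7, of order 99 in the mouse list of 1638. Thus the highest peak of the window was the same place for both antibodies.

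To its left was a group of 5 rabbit peaks within 2627 bp, at 2427827, 2428220, 2428772, 2429663 and 2430452. Their scores were 6.72, 14.7, 5.20, 5.69 and 15.9. The members that scored highest, at 2428220 and 2430452, each had a mouse peak, at 2428249 (score 4.50) and 2430501 (score 8.58). The members between and beside them scored lower and had no mouse peak within 250 bp. Groups of 5 or more rabbit peaks, chained at gaps of up to 1 kb, numbered 27 of 1384 on 2L.

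To the right, 6 rabbit peaks without a mouse partner followed after a gap of 17080 bp. The first were at 2450924 (score 12.4) and 2451522 (score 6.82), and next came a peak at 2454897 with a score of 28.8, of order 509. This was the second highest rabbit score in the window, yet its nearest mouse peak was 21048 bp away. Peaks at 2461521 (score 6.58), 2462469 (9.46) and 2468224 (3.88) completed the side. The remaining rabbit peak, at 2420882 (score 6.33), was the leftmost. The nearest peaks outside the limits were rabbit peaks at 2415322 (score 4.97) and 2492928 (score 3.20). The mouse list had no other peak between 2222469 and 2750323.

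**Figure D1:**
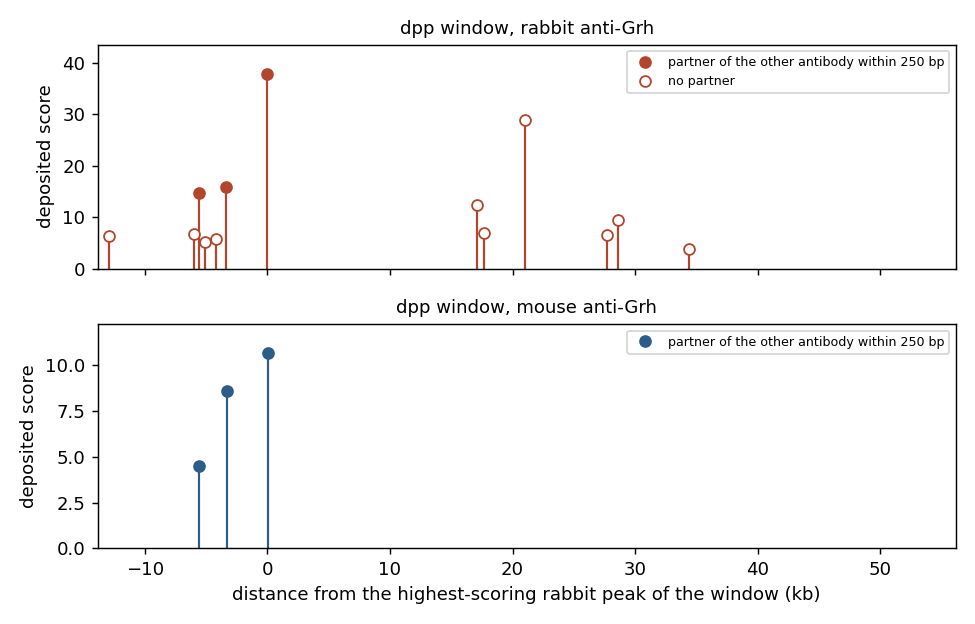
Deposited scores (vertical axis, no stated unit, a separate scale for each antibody) of the peaks in the dpp window against distance in kb from its highest-scoring rabbit peak. Filled points have a peak of the other antibody within 250 bp and open points do not; the 3 mouse peaks stand together near 0 kb, while the rabbit peak with a score of 28.8 about 21 kb to the right is open.

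The wg cluster window held 15 rabbit and 2 mouse peaks. It contained 1 very high rabbit peak, at 7281654, with a score of 80.7. The peak was of order 32 in the whole rabbit list and of order 3 among the 2053 rabbit peaks on 2L. It had no mouse partner: the nearest mouse peak was 20060 bp away. Its score was 5.32 times the next highest in the window and made up 45.1% of the summed score of the 15 peaks. In the dpp window the highest rabbit peak made up 23.6% of the sum and was 1.31 times the next. The unit of the score is not stated, so these ratios and shares describe the deposited values only. They were not computed for other windows of 2L.

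The places marked by both antibodies in the wg cluster window lay on either side of that peak. On the left, the rabbit peak at 7255012 (score 15.2) had a mouse peak at 7255030 with a score of 2.72, of order 1463 in the mouse list. On the right, the rabbit peak at 7301740 (score 11.4) had a mouse peak at 7301714 with a score of 5.37, of order 786. Each of these rabbit peaks had a lower rabbit neighbour without a mouse partner. That of the first was at 7254770 (score 8.37), 260 bp from the mouse peak and so just past the distance for a match. That of the second was at 7302061 (score 5.73), 347 bp from the mouse peak.

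The other rabbit peaks of the window were low or of middle score. On the left stood peaks at 7241708 (score 7.57), 7243790 (2.06), 7245516 (5.85), 7249541 (2.98) and 7258291 (9.92). Around the highest peak stood those at 7277183 (4.75), 7283976 (6.66) and 7286206 (5.25). On the right were peaks at 7306977 (5.73) and 7352850 (6.88), with 45873 bp between them. Of the 2052 gaps between rabbit peaks on 2L, 105 (5.12%) were at least as long. That share is for any single gap, whereas this gap was the longest of the 14 inside the window. How often the longest of 14 gaps reaches this length was not computed. The next rabbit peak lay beyond the window, 35112 bp further on at 7387962 (score 7.79). The last rabbit peak before the window was at 7223076 (score 5.15), and the nearest mouse peaks outside it were at 7174534 (score 5.80) and 7398686 (score 6.17).

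**Figure D2:**
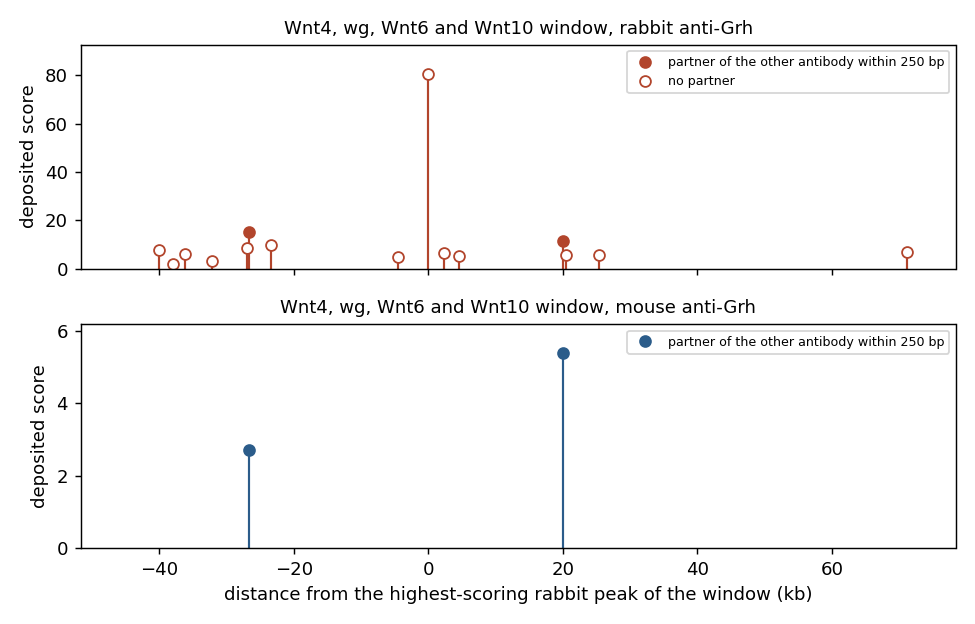
Deposited scores (vertical axis, no stated unit, a separate scale for each antibody) of the peaks in the wg cluster window against distance in kb from its highest-scoring rabbit peak. Filled points have a peak of the other antibody within 250 bp; the rabbit peak with a score of 80.7 is open, and the mouse peaks with scores of 2.72 and 5.37 stand to its left and right.

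From the side of the mouse list, every peak in the windows was also a rabbit place: 3 of 3 at dpp and 2 of 2 at the wg cluster, against 99% over the whole mouse list. The positions of the partners were 5, 29 and 49 bp apart at dpp and 18 and 26 bp apart at the wg cluster. The median of the 5 distances was 26 bp, against 11 bp over all 1607 one-to-one pairs, of which 93.4% were up to 50 bp apart. At dpp the mouse peak lay to the right of its rabbit partner in all 3 pairs. At the wg cluster it lay to the right in 1 pair and to the left in the other. How often the mouse peak lies to the right over all 1607 pairs was not computed, so these counts are description only.

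At dpp the scores of both antibodies put the 3 pairs in the same order, with 2433844 highest, 2430452 next and 2428220 lowest. At the wg cluster the order turned: the place at 7255012 had the higher rabbit score (15.2 against 11.4) and the lower mouse score (2.72 against 5.37). Of the 5 mouse peaks, 1 was in the top 10% of its list by score, where 10% is the background by definition, and 3 were above the list's median of 5.27.

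**Figure D3:**
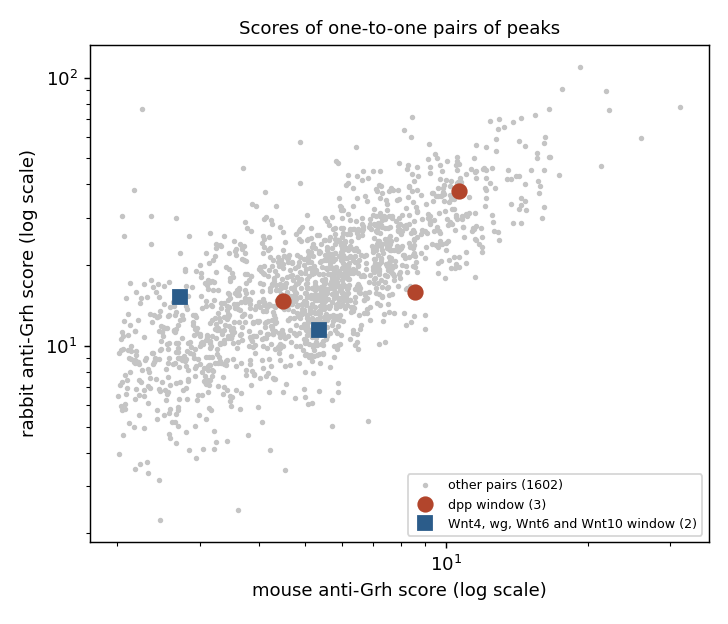
Rabbit score against mouse score, both on log axes and with no stated unit, for all one-to-one pairs within 250 bp. Grey points are the 1602 pairs elsewhere; the 3 dpp pairs and the 2 wg cluster pairs lie within the grey cloud, and the pair with scores of 10.7 and 37.8 stands highest among them.

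From the side of the rabbit list, most places in both windows had no mouse peak. A partner within 250 bp was found for 3 of 13 rabbit peaks at dpp, or 23.1% (exact 95% binomial interval 5.04 to 53.8%), and for 2 of 15 at the wg cluster, or 13.3% (1.66 to 40.5%). The share over the whole rabbit list was 14.4%, and over the 2025 rabbit peaks elsewhere on 2L it was 14.6% (13.1 to 16.2%). Both windows' intervals include these shares. The intervals count each peak as independent, although some peaks are close neighbours, and a departure from the rest of the list was not tested. Allowing 1000 bp raised the share at dpp to 46.2% (6 of 13), and allowing 500 bp raised that at the wg cluster to 26.7% (4 of 15). A wider distance can only raise a share, and the whole list's shares at these distances were not computed. They cannot be set against the 14.4%, which is for 250 bp.

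The 5 matched rabbit peaks of the windows were all in the upper 25% of their list by score. Most matched peaks of the whole list stood there too. Their lower quartile was 10.7, above the upper quartile of 10.1 for all rabbit peaks. The highest peak of the windows, at 7281654, was not matched. The 5 matched scores ran from 11.4 to 37.8 with a median of 15.2, against 15.7 over all matched rabbit peaks. The 23 unmatched ones had a median of 6.58 and a range from 2.06 to 80.7, against a median of 5.45 over all unmatched rabbit peaks. By place in the rabbit list, 4 of the 5 window peaks between 10% and 25% were matched, or 80.0% (exact 95% interval 28.4 to 99.5%), where 37.8% of the whole list's peaks were (35.6 to 40.1%). The interval of the windows includes the share of the list. None of the 10 peaks between 25% and 50% was matched, where 9.02% were, and none of the 10 in the lower 50%, where 1.78% were. Counts of 0 of 10 allow shares of up to 30.8% (exact 95% interval).

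Of the 28 rabbit peaks in the windows, 3 were in the top 10% of their list (background 10%), and of these only 2433844 at dpp had a mouse partner. Of the 1216 rabbit peaks in the top 10% of the whole list, 684 were matched and 532 were not. Among the 100 rabbit peaks next to 2454897 in order of score, 60% were matched (49.7 to 69.7%), unlike 2454897 itself. Among the 81 next to 7281654, with scores from 60.1 upward, 22.2% were matched (13.7 to 32.8%), so that most peaks of its height also lacked a mouse partner.

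**Figure D4:**
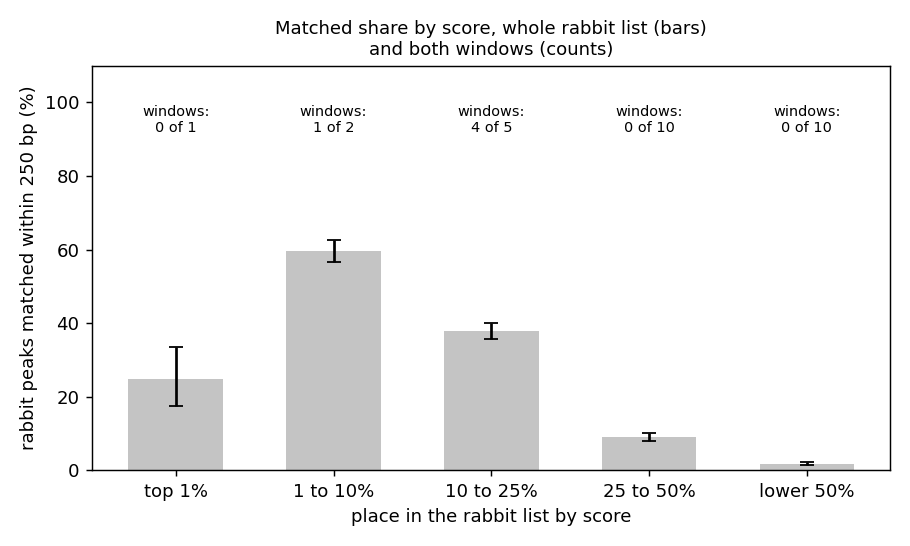
Percent of rabbit peaks with a mouse peak within 250 bp (bars, with exact 95% binomial intervals) in 5 bands of the whole rabbit list by score, and above each bar the matched and total counts in both windows together. The bars run from 59.7% between 1% and 10% down to 1.78% in the lower 50%, with 24.8% in the top 1%; 4 of the 5 matched window peaks fall between 10% and 25%.

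The dpp window was more densely marked than 2L as a whole in both lists. It had 186 rabbit peaks per megabase (exact Poisson 95% interval 98.9 to 318), 2.07 times the 89.6 of 2L. It had 42.9 mouse peaks per megabase (8.84 to 125), 3.47 times the 12.3 of 2L, which lies inside that interval. The Poisson intervals here and for the wg cluster count each peak as independent, although some peaks are close neighbours. They are thus too narrow a guide to a departure from 2L, which was not tested. With only the upper 50% of each list by score, the rabbit ratio was 3.23 and the mouse ratio 5.08. With peaks chained into groups at gaps of up to 1 kb, the rabbit ratio was 1.66, the same as at the wg cluster, and the mouse ratio 4.04. Set beside every 70 kb window of 2L at steps of 1 kb, 22849 windows that overlap each other, the rabbit count of 13 was reached or passed by 12.7% and the mouse count of 3 by 11.4%. The median 70 kb window held 5 rabbit peaks (quartiles 2 and 9) and 0 mouse peaks, and the fullest held 30 and 7. The limits of the dpp window were chosen with earlier results of these data known, and the effect of that choice on its density was not tested.

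Counted in single peaks, the wg cluster window was closer to the arm in density than the dpp window; counted in rabbit groups, it was not. It had 115 rabbit peaks per megabase (64.6 to 190), 1.29 times that of 2L (1.66 in groups), and 15.4 mouse peaks per megabase (1.86 to 55.6), 1.25 times that of 2L. Among the 22789 windows of 130 kb, 31.6% held at least 15 rabbit peaks and 45.1% at least 2 mouse peaks. The median window held 11 rabbit peaks and 1 mouse peak. Of the 13 parts of 10 kb in the wg cluster window, 7 had no rabbit peak, 4 of them in a row between 7310000 and 7350000. At dpp 3 of 7 such parts had none. The share of such empty parts over all of 2L was not computed, so these counts are description only.

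**Figure D5:**
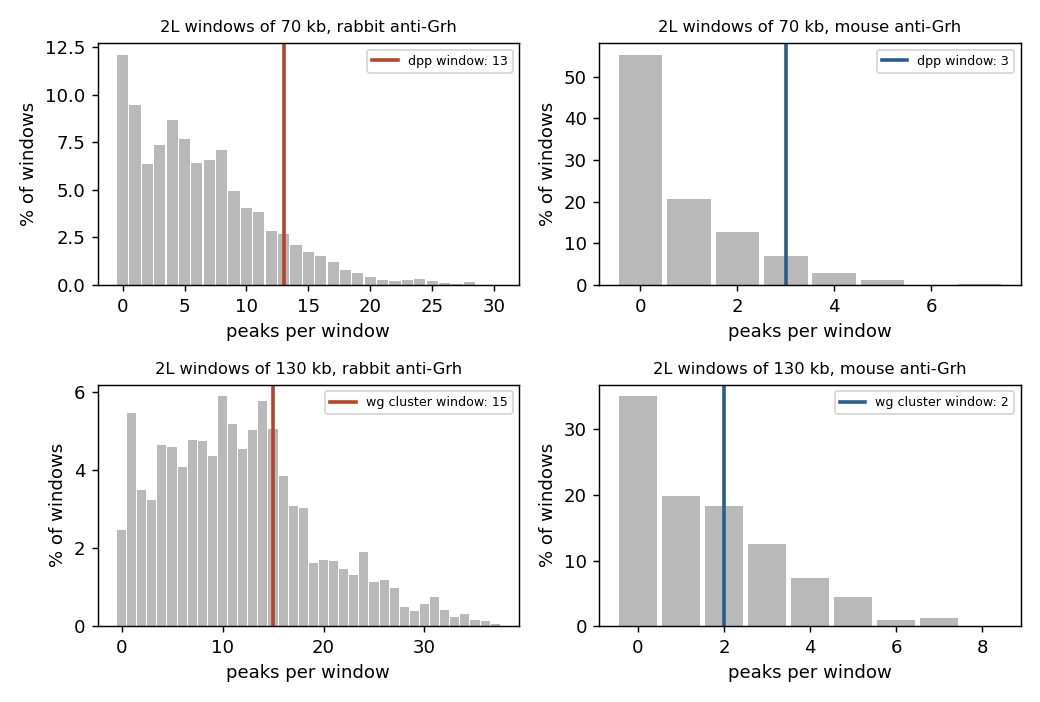
Percent of all 2L windows (vertical axes) by number of peaks per window (horizontal axes), for 70 kb windows (top) and 130 kb windows (bottom), with rabbit peaks on the left and mouse peaks on the right. The coloured lines mark the dpp window at 13 and 3 peaks, to the right of most windows, and the wg cluster window at 15 and 2 peaks, near the middle.

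Scores in both windows were spread over the rabbit list. The median was 6.82 at dpp (quartiles 6.33 and 14.7) and 6.66 at the wg cluster (5.49 and 9.14), against 5.98 in the whole list. Above that median were 10 of 13 rabbit peaks at dpp and 8 of 15 at the wg cluster, against 50% of the list by definition. The median mouse score was 8.58 at dpp (3 peaks), and the wg cluster's mouse peaks were at 2.72 and 5.37.

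Chained at gaps of up to 1 kb, the 13 rabbit peaks of dpp formed 7 groups and the 15 of the wg cluster 13 groups, and no mouse peaks were joined. With gaps of up to 500 bp, dpp had 12 groups. Groups of 2 or more held 9 of the 13 rabbit peaks at dpp and 4 of the 15 at the wg cluster, against 53.2% of the whole rabbit list. Of the 8 pairs of neighbouring rabbit peaks up to 1 kb apart, 4 had the same deposited rank, against 42.9% in the whole list. These were 2427827 with 2428220, 2450924 with 2451522, 7254770 with 7255012, and 7301740 with 7302061, and in 3 of the 4 the pair included a peak matched to the mouse list. How often such pairs include a matched peak over the whole list was not computed. The meaning of a common rank is not stated, so such neighbours need not be separate places.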

How the data were processed

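Reads were aligned with Bowtie to dm3, per the submitters' processing notes. The caller of the peaks, any threshold, the aligner's version and the role of IgG in calling were not given in the sources used here. For each anti-Grh library the authors deposited 1 list, with 2 bp intervals, a numbered name with a rank, and a score of unstated unit (lowest about 2.0 in both lists). Scores were compared within a list only. Peaks are named by their first base, counted from 1.

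The members, limits and settings were chosen with earlier results of these data known. Peaks were matched within 250 bp. The rule for naming peaks took every member, since neither window held more than 15 rabbit peaks. Densities were set beside all equal-length windows of 2L, not random draws, with the arm's length taken as the highest peak end. Matching, chaining and window counts were tested on simulated data. Intervals are 95% Clopper-Pearson or exact Poisson. Depth is unknown. Sequence, the motif search and the lists of pathway genes were not used here, because no dm3 genome or annotation was at hand. Values were computed with SciPy 1.17.1, pandas 2.3.3 and NumPy 2.4.6 under Python 3.11.15, and plotted with matplotlib 3.10.9.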

Additional observations from a re-analysis of the deposited data

How the results depend on the processing

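Of 50 alternative values for 18 results, 49 stayed inside the counting interval, the range or 1.5 times the count of the value reported. The exception was the number of rabbit groups at dpp, which was 12 instead of 7 when peaks were chained at gaps of up to 500 bp, since fewer neighbours are joined by construction. Chaining at 500 bp and 2000 bp, and partner distances in the upper 50%, were chosen after seeing the data. The intervals are wide, so values inside them still moved. The median place of the 3 dpp mouse peaks was 12.5% of the list by score and 36.6% by the number in the deposited names. The densities over 2L at dpp ran from 1.66 (groups of peaks) to 3.23 for rabbit and from 2.70 (window widened by 10 kb at both ends) to 5.08 for mouse. Those at the wg cluster ran from 1.13 (against all major arms) to 1.66 (groups of peaks, equal to dpp) for rabbit and from 1.08 (window widened by 10 kb at both ends) to 1.45 (groups of peaks) for mouse. No paired analysis was possible because there is a single library for either antibody. For the same reason no library was left out.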

Other observations

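The numbering in the deposited names, whose basis is not stated, and the score put some members far apart. This held for the lists as a whole: the Spearman correlation of number with order by score was 0.498 for rabbit and 0.432 for mouse. The members below are therefore examples and not a trait of the windows. The rabbit peak at 7258291 in the wg cluster window was number 131 of 12158 but of order 3112 by score (9.92). Among the 131 peaks numbered up to and including it, 13 scored as low or lower, with the peak itself counted. The peak at 7281654 stood near the top both ways, at number 44 and order 32. At dpp the order of the leading peaks turned: 2454897, without a mouse partner, was number 962 and 2433844, with one, number 1905, although their scores were 28.8 and 37.8. The group of 5 rabbit peaks at dpp held numbers from 2739 to 11873.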
